A study of Mus musculus with 4 samples.

Results

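The genes described here are 9 genes of mitochondrial heme synthesis and cellular iron handling, namely Abcb10, Abcb6, Slc25a37, Slc25a38, Alas1, Fech, Hmox1, Tfrc and Fth1. They were taken by gene symbol from a deposited table of 49548 genes, and all 9 were among the 13290 genes with enough signal to test. Abcb10 was picked because it stood much higher in Prox1 cells in these same libraries, so its values are given as a description with no test. The other 8 were picked as its partners by function, with the results of these data known.

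The cells were Neuro2A, a mouse neuroblastoma line. Prox1-Tet-On cells carry a transgene for Prox1, a homeodomain transcription factor, behind a promoter that doxycycline switches on, and GFP-Tet-On cells carry GFP in its place. Both stable lines were held under G418 and hygromycin B, and both were given doxycycline at 1 µg/mL, so the drug is common to all 4 libraries, 2 per line, as is medium with 10% serum. Each transgene sat in a line of its own, so effects of the line and of the transgene cannot be told apart. The sources used here do not give the time of induction or say whether each line is a single clone. RNA was read with a 3′ end kit that counts the last stretch of each transcript. The labels do not say that replicates were grown apart. A p-value here reflects library-to-library spread, possibly technical.

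Heme is made by a chain of enzymes that begins and ends inside the mitochondrion. Glycine enters through the carrier Slc25a38, Alas1 joins it to succinyl-CoA in the first and rate-limiting step outside red cell precursors, and Fech puts iron, brought in by carriers such as Slc25a37, into the finished porphyrin ring. Abcb10 is an ATP-driven transporter of the inner membrane that binds Slc25a37 and is needed for heme synthesis in developing red cells, and Abcb6 is a porphyrin transporter. Hmox1 breaks heme down to biliverdin, iron and carbon monoxide, Tfrc brings transferrin-bound iron into the cell, and Fth1 is the ferritin subunit that oxidises iron for storage.

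The libraries summed to between 6798014 and 7683100 normalised counts. Prox1 itself, the check of the labels, stood at 1304 and 2505 normalised counts in Prox1 libraries, against 2 and 3 in GFP libraries. Of 11 sympathoadrenal markers, 10 were over 10 in every library. Their summed level was 5994 and 5531 in Prox1 libraries, against 12187 and 11648 in GFP libraries, and whether that difference bears on the genes below was not tested. Of 12 erythroid markers, 11 were at or under 5 in every library, and 5, among them Hbb-bt, Alas2 and Slc4a1, were at 0. The erythroid sum was 5 and 9 in Prox1 libraries, against 26 and 27 in GFP libraries, and was mostly the erythropoietin receptor gene Epor. Macrophage markers, of which Ptprc, Csf1r, Adgre1, Lyz2 and Cd14 were at 0, summed to 6 and 12 in Prox1 libraries, against 7 and 14 in GFP libraries. Fibroblast markers, with Col3a1, Lum and Thy1 at 0, summed to 38 and 5 in Prox1 libraries, against 2 and 12 in GFP libraries. Markers of Schwann cells and glia, with Sox10 and Gfap among those at 0, summed to 91 and 104 in Prox1 libraries, against 47 and 81 in GFP libraries.

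Values below are normalised counts, differences are on the log2(normalised count + 1) scale as Prox1 minus GFP, and a gene is called when its limma adjusted p is under 0.05 over all 13290 genes. On this rule 16.0% of all tested genes were called, 7.57% higher and 8.41% lower in Prox1 cells. The libraries of the groups did not overlap in 58.8% of tested genes, so a lack of overlap was common. At an unadjusted p under 0.05 limma placed 31.7% of all tested genes. A fit without 1 library takes the lone sample of its group to vary like the other group. No gene passed in any such fit, not even Prox1, and the lowest adjusted p was 0.142 to 0.246 (2365 to 2981 genes at an unadjusted p under 0.05). These fits therefore say nothing about single calls. For most called genes described below, the range of the log2 difference with 1 library removed is given. Among those without it are Bola3, Nubpl and the called antisense neighbour of Abcb10, whose limma adjusted p lay just under the threshold. The share in the authors' deposited table was 4.62% of the genes with a DESeq adjusted p, counted at the same threshold.

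Abcb10 was 8.96 times as abundant in Prox1 cells as in GFP cells, by far the widest gap among the 9 genes. Abcb10 (ENSMUSG00000031974, mm10, chr8:123952459-123983122, minus strand) stood at 1191 and 942 in Prox1 libraries, against 134 and 104 in GFP libraries. Both Prox1 libraries were far above both GFP libraries. The means were 1066.5 ± 176 in Prox1 cells and 119 ± 21.2 in GFP cells (SD, n = 2 each), with a log2 difference of 3.15 ± 0.23 (SE). In bulk RNA fewer cells with a transcript and less of it per cell cannot be told apart, here and for every gene below. By log2 difference Abcb10 was rank 80 of 13290 genes, and 28 of the 79 genes ahead of it had a mean of at least 50 in Prox1 libraries. The log2 difference was 2.97 to 3.34 with 1 library left out.

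**Figure D1:**
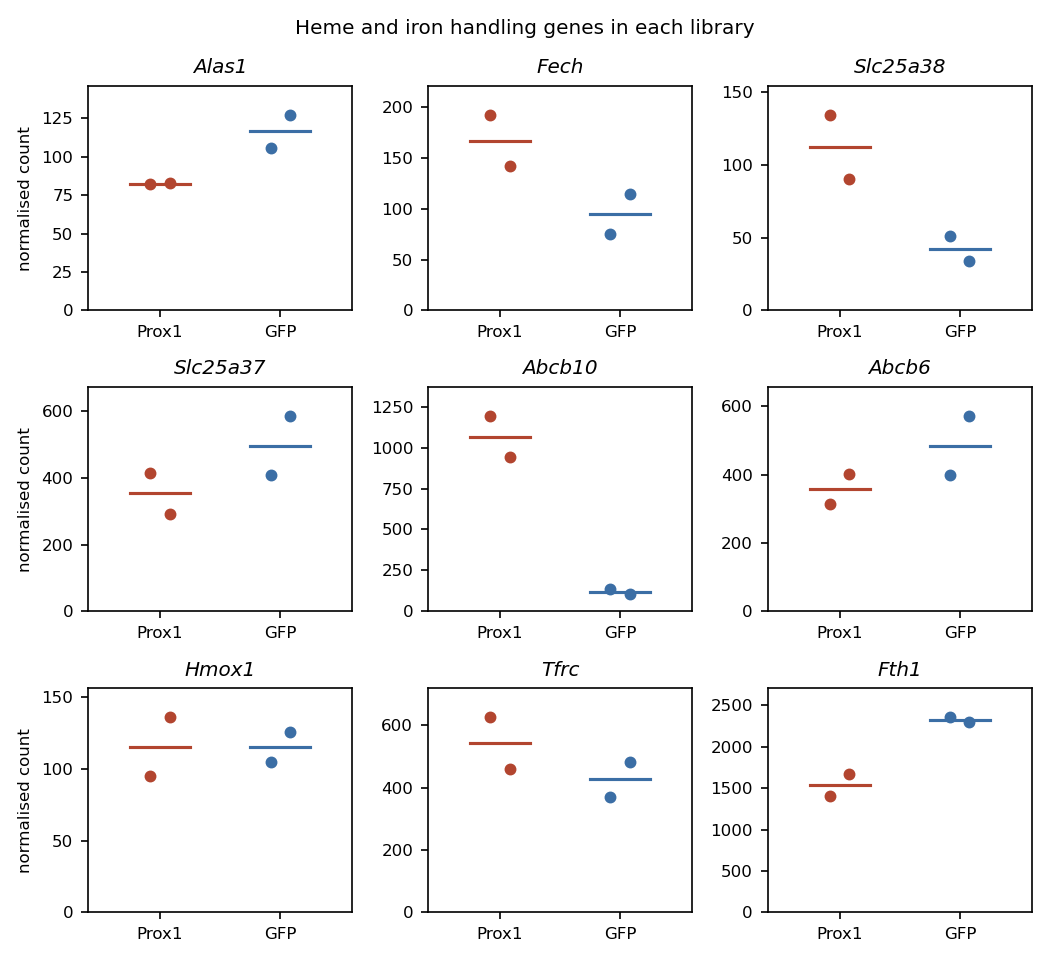
Normalised counts (vertical axes, from 0, each on its own scale) of the 9 genes in the Prox1 libraries (left, red) and the GFP libraries (right, blue), with points for single libraries and bars for the mean of 2. Abcb10 is at 1191 and 942 in Prox1 cells, against 134 and 104 in GFP cells, while Hmox1 has the same mean, 115.5, in both.

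The 250 bases before the annotated start of Abcb10 are shown because it is the gene with the widest gap. They come from RefSeq on GRCm38.p6, chr8:123983123-123983372, minus strand, with the single match to the NRF-1 core in capitals.
Abcb10 upstream: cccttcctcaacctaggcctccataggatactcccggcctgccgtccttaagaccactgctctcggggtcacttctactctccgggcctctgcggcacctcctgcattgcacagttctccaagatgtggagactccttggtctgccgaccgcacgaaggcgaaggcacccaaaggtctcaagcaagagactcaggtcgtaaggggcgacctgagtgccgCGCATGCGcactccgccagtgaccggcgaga
The capital letters CGCATGCG are the core of the site of NRF-1, a regulator of genes for mitochondrial proteins, and lie 23 bases before the start. This motif was chosen after the sequence had been read. It occurs in 1.55% of 32851 RefSeq windows of the same length, read on both strands. Of the 6 genes of the group with an entry, Abcb10 and Alas1 held it. Other cores searched on both strands were GATAA (GATA factors, 22.6% of windows, present for Fth1), TGACNNNGC (antioxidant response element, 10.2%, present for Slc25a38) and ACGTG (hypoxia response element, 16.6%, present for Tfrc). A match describes these letters and is not a measured binding site.

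Genes beside Abcb10 on the chromosome are given as a description. Since Abcb10 was picked for its large rise, smaller gaps beside it are not read as a result. Within 250 kb, 10 other genes were tested, and their log2 differences lay between -0.32 and 1.51 with a median of 0.44. Of the 10, 1 was called, against 16.0% of all tested genes. Nup133, which encodes a nuclear pore protein and lies just beyond the 3′ end of Abcb10, was at 310 and 251 in Prox1 libraries, against 165 and 201 in GFP libraries (limma adjusted p 0.102). Taf5l, on the other side, was at 383 and 639 in Prox1 libraries, against 400 and 423 in GFP libraries (limma adjusted p 0.514). The called neighbour was RP24-246F6.2, an antisense transcript of few counts, at 35 and 41 in Prox1 libraries, against 16 and 10 in GFP libraries (log2 1.51, limma adjusted p 0.0447). The sources used here do not say whether counting used strand, so reads of overlapping genes may be shared. RP24-93F18.2, antisense to the 3′ part of Abcb10, was at 25 and 22 in Prox1 libraries, against 6 and 16 in GFP libraries. Gm20388, a long model on the plus strand that spans Abcb10, had 2006 and 1122 in Prox1 libraries, against 1149 and 1198 in GFP libraries. These were nearly the values of Galnt2, with which it also overlaps, so the pair may hold the same reads among the 10 genes.

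**Figure D2:**
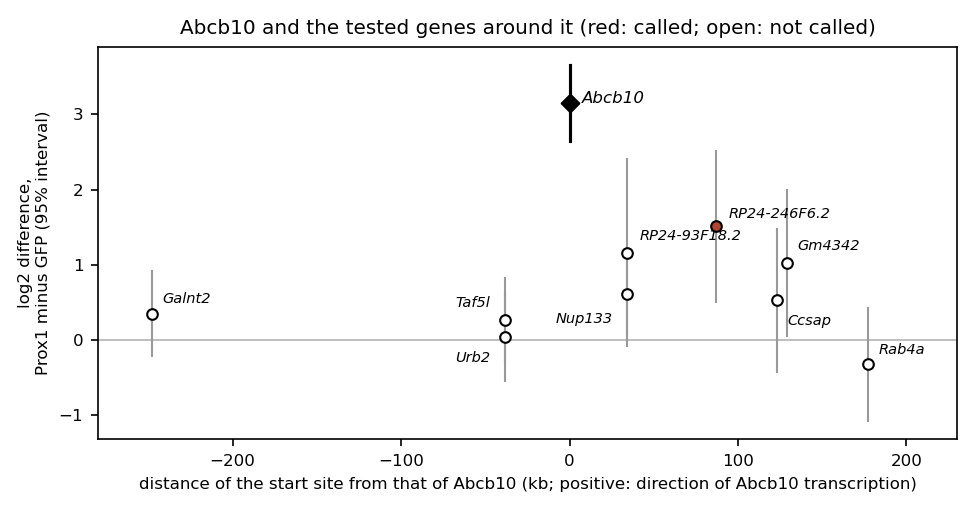
Log2 difference, Prox1 minus GFP (vertical axis, lines: 95% intervals), of Abcb10 and of tested genes within 250 kb, by the distance of their start sites from that of Abcb10 in kb (horizontal axis). Abcb10 is at 3.15 and the plotted neighbours are between -0.32 and 1.51; Gm20388, which starts farther away, is not drawn.

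The 5 tested genes whose log2 values, centred on each gene's mean, lay closest to those of Abcb10 over the 4 libraries were Gm11704, Gm42743, 9530062K07Rik, Ago4 and Card6, at Euclidean distances of 0.125 to 0.306. The closest, the processed pseudogene Gm11704, was at 248 and 177 in Prox1 libraries, against 27 and 21 in GFP libraries. Ago4, which encodes a protein that binds small RNAs, was at 40 and 27 in Prox1 libraries, against 4 and 2 in GFP libraries. These 5 genes had log2 differences of 3.04 to 3.29. The other 8 heme and iron genes lay between -0.61 and 1.38, so none of them could be among the 5.

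Of the 8 partners of Abcb10, limma called 1 higher and 0 lower, or 12.5%, against 16.0% of all tested genes. Their median log2 difference was -0.22, against -0.0017 for all tested genes, with 3 positive and 5 negative. At an unadjusted p under 0.05 there were 3 of 8, Slc25a38, Fech and Fth1, against 31.7% of all tested genes. In 4 of the 8 the libraries of the groups did not overlap, against 58.8% of all tested genes. DESeq passed 0 of the 8 in the authors' deposited table, against 4.62% of all genes with a DESeq adjusted p.

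**Figure D3:**
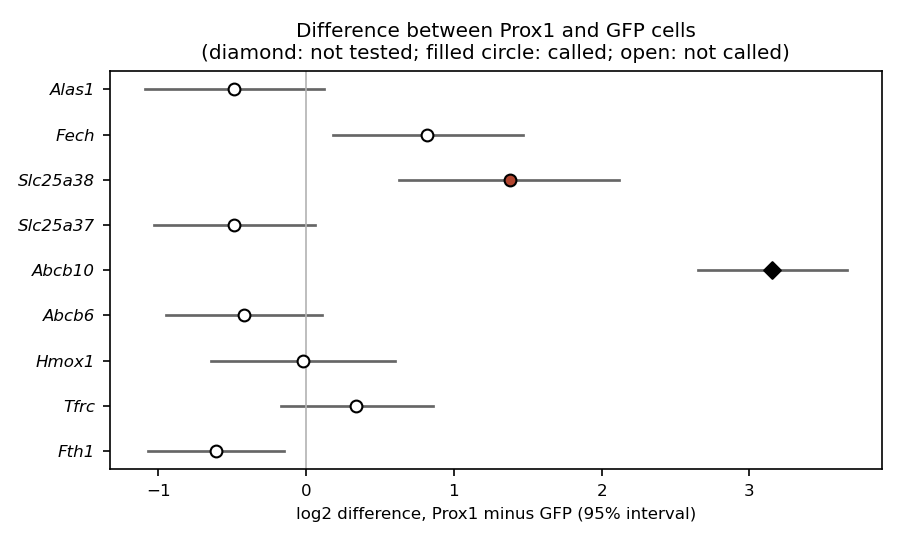
Log2 difference, Prox1 minus GFP (horizontal axis, lines: 95% intervals), of the 9 genes in order of role, from heme synthesis to iron storage (down the page). Abcb10 (diamond, not tested) is at 3.15, Slc25a38 (filled, called) at 1.38, and the other 7 lie between -0.61 and 0.82.

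Slc25a38, the mitochondrial glycine carrier whose loss gives a sideroblastic anaemia in humans, was the only called partner. Slc25a38 (ENSMUSG00000032519, chr9:120110374-120124504, plus strand) was at 134 and 90 in Prox1 libraries, against 51 and 34 in GFP libraries. Both Prox1 libraries were above both GFP libraries. The ratio of means was 2.64 and the log2 difference 1.38 ± 0.34 (SE; 95% interval 0.63 to 2.12; limma adjusted p 0.0173). Its log2 difference was 1.09 to 1.66 with 1 library left out. The call was lost without the variance trend (limma adjusted p 0.0597), and the authors' deposited table has a DESeq adjusted p of 0.101.

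The iron carrier that binds Abcb10 was not called, and its mean was lower in Prox1 cells. Slc25a37, which encodes mitoferrin (ENSMUSG00000034248, chr14:69241848-69285112, minus strand), was at 414 and 293 in Prox1 libraries, against 409 and 584 in GFP libraries. The groups overlapped, since the higher Prox1 library lay just above the lower GFP library. The log2 difference was -0.49 ± 0.25 (SE; 95% interval -1.03 to 0.06; limma adjusted p 0.207). Its paralog Slc25a28, or mitoferrin-2, the form used outside red cell precursors, was at 172 and 139 in Prox1 libraries, against 177 and 205 in GFP libraries (limma adjusted p 0.45).

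Abcb6, the porphyrin transporter, was not called either. Abcb6 (ENSMUSG00000026198, chr1:75171717-75180392, minus strand) was at 314 and 403 in Prox1 libraries, against 398 and 571 in GFP libraries, with the higher Prox1 library slightly above the lower GFP library. The log2 difference was -0.42 ± 0.24 (SE; 95% interval -0.95 to 0.11; limma adjusted p 0.26). Its span is shared on the same strand with Gm29253, which had 274 and 358 in Prox1 libraries, against 365 and 536 in GFP libraries, so reads of the pair may not be separable.

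Among the ABCB transporter family, 7 of 10 other genes were tested. Of these, 0 were called higher and 2 lower, or 28.6%, against 16.0% of all tested genes, with a median of -0.44. DESeq passed 0 of the 7 in the authors' deposited table, against 4.62% of all genes with a DESeq adjusted p. Its adjusted p was 0.13 for Abcb1a and 0.343 for Abcb9. Abcb1a, a drug efflux pump, was at 20 and 23 in Prox1 libraries, against 104 and 41 in GFP libraries (log2 -1.56 ± 0.45, limma adjusted p 0.0336), and the GFP libraries differed widely, so that the log2 difference was -0.90 without GFP replicate 1 and -2.23 without GFP replicate 2. Abcb9, a lysosomal peptide transporter, was at 21 and 20 in Prox1 libraries, against 49 and 52 in GFP libraries (log2 -1.26 ± 0.39, limma adjusted p 0.045), and was not called when library totals were set equal (0.0608). The log2 difference of Abcb9 was -1.30 to -1.22 with 1 library left out. Without the variance trend Abcb1a lost the call (limma adjusted p 0.0881) and Abcb9 kept it (0.0342). The mitochondrial member Abcb8 was not called, at 79 and 58 in Prox1 libraries, against 96 and 71 in GFP libraries (limma adjusted p 0.588).

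The first and last enzymes of heme synthesis lay on opposite sides of 0, and neither was called. Alas1 (ENSMUSG00000032786, chr9:106233455-106248654, minus strand) was at 82 and 83 in Prox1 libraries, against 106 and 127 in GFP libraries. Fech (ENSMUSG00000024588, chr18:64456550-64489066, minus strand) was at 192 and 142 in Prox1 libraries, against 75 and 115 in GFP libraries. In neither gene did the groups overlap. Alas1 had a log2 difference of -0.49 ± 0.28 (SE; 95% interval -1.09 to 0.12; limma adjusted p 0.255). Fech had a ratio of means of 1.76 and a log2 difference of 0.82 ± 0.30 (SE; 95% interval 0.18 to 1.47; limma adjusted p 0.0773).

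Of the 7 other heme synthesis enzymes, 6 were tested, with a median log2 difference of 0.37. limma called 0 of the 6, against 16.0% of all tested genes. At an unadjusted p under 0.05 there were 2 of 6, Alad and Cpox, against 31.7% of all tested genes. In the authors' deposited table DESeq passed 0 of the 6, against 4.62% of all genes with a DESeq adjusted p. Alad, which joins 5-aminolevulinate into porphobilinogen, was at 269 and 288 in Prox1 libraries, against 365 and 468 in GFP libraries (log2 -0.57 ± 0.23, limma adjusted p 0.105). Cpox, which makes protoporphyrinogen and was named after its values were seen, was at 557 and 501 in Prox1 libraries, against 350 and 411 in GFP libraries (limma adjusted p 0.149). Uros, Urod and Ppox, which act at other steps of the chain, had limma adjusted p of 0.234 to 0.55. Of these, Urod, which trims uroporphyrinogen, was at 249 and 275 in Prox1 libraries, against 210 and 183 in GFP libraries. The erythroid form of the first enzyme, Alas2, was at 0 in all 4 libraries, so Alas1 was the only detected gene for that step.

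Hmox1, the inducible heme oxygenase, had equal means in both lines and was not called. Hmox1 (ENSMUSG00000005413, chr8:75093621-75100589, plus strand) was at 95 and 136 in Prox1 libraries, against 105 and 126 in GFP libraries. The Prox1 libraries lay on either side of the GFP libraries. The means were 115.5 ± 29 in Prox1 cells and 115.5 ± 14.8 in GFP cells (SD, n = 2 each), with a log2 difference of -0.02 and a 95% interval of -0.64 to 0.60 (limma adjusted p 0.976). The constitutive form, Hmox2, was at 245 and 368 in Prox1 libraries, against 274 and 291 in GFP libraries (limma adjusted p 0.837). Of 11 antioxidant response genes known to be regulated with Hmox1, 9 were tested, with a median of -0.32. limma called 0 of the 9, against 16.0% of all tested genes. In the authors' deposited table DESeq passed 0 of the 9, against 4.62% of all genes with a DESeq adjusted p. Lowest in p was Gclm, a subunit of the enzyme that starts glutathione synthesis and the only 1 of the 9 at an unadjusted p under 0.05 (31.7% of all tested genes), at 1257 and 1064 in Prox1 libraries, against 1716 and 1780 in GFP libraries (limma adjusted p 0.071; DESeq adjusted p 0.529 in the authors' deposited table).

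Genes that carry, assemble or break down heme and were in the table numbered 13, of which 11 were tested. Of these, 1 was called higher and 2 lower, or 27.3%, against 16.0% of all tested genes, with a median of 0.09. Blvra, which reduces the biliverdin left by heme oxygenase to bilirubin, was at 129 and 159 in Prox1 libraries, against 80 and 70 in GFP libraries. It rose with a ratio of means of 1.92 (log2 0.93 ± 0.28, limma adjusted p 0.0399). Hebp1, which encodes a heme-binding protein, was at 160 and 187 in Prox1 libraries, against 447 and 546 in GFP libraries. It fell with a ratio of means of 0.349 (log2 -1.51 ± 0.23, limma adjusted p 0.00139), and the authors' deposited table gives it a DESeq adjusted p of 0.00664. Slc25a39, a mitochondrial carrier that imports glutathione, was at 1103 and 1504 in Prox1 libraries, against 2401 and 2446 in GFP libraries. It fell with a ratio of means of 0.538 (log2 -0.91 ± 0.22, limma adjusted p 0.016). With 1 library left out the log2 difference was 0.78 to 1.08 for Blvra, -1.65 to -1.36 for Hebp1 and -1.13 to -0.69 for Slc25a39. DESeq adjusted p in the authors' deposited table was 0.315 for Blvra and 0.264 for Slc25a39. Without the variance trend these 2 lost the call (limma adjusted p 0.0797 and 0.0905), and Hebp1 kept it (0.0282).

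**Figure D4:**
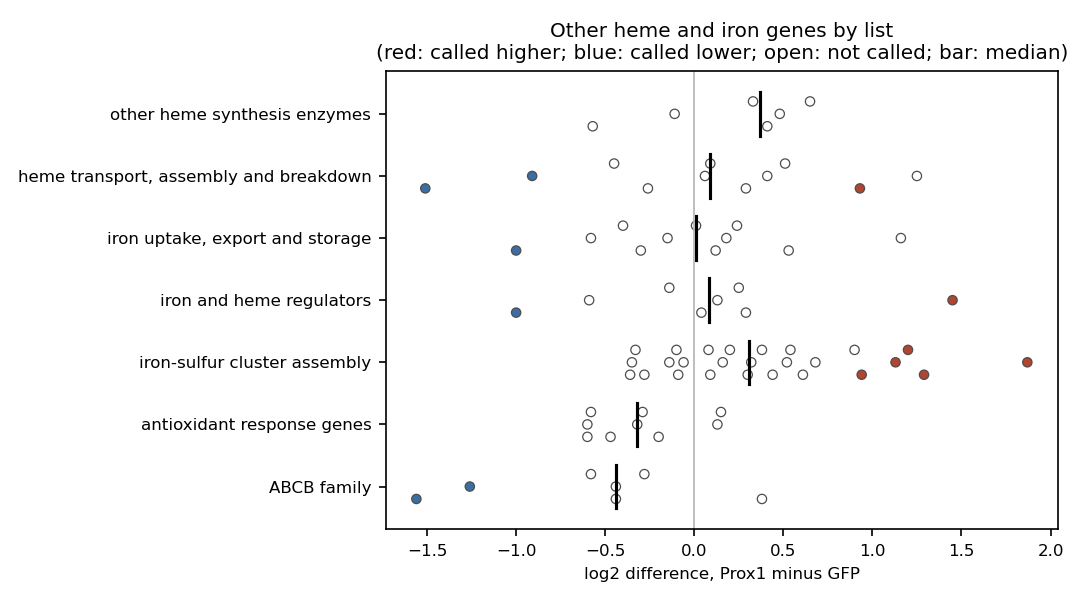
Log2 difference, Prox1 minus GFP (horizontal axis), of each tested gene in 7 lists of heme and iron genes (rows), with red for called higher, blue for called lower, open for not called and a bar for the list median. The list medians lie between -0.44 for the ABCB family and 0.37 for the other heme synthesis enzymes, and the 5 called genes of iron-sulfur cluster assembly are all on the higher side.

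Iron uptake and storage were looked at through Tfrc and Fth1. Their messenger RNAs are textbook targets of the iron regulatory proteins, which in cells short of iron bind a short stem and loop, the iron-responsive element, keep Tfrc RNA from decay and hold back translation of ferritin. The sites are shown because they lie in the very transcripts counted here. A script found them in GENCODE transcripts on GRCm38 as a 5-base paired stem above an unpaired C, closed by the 6-base loop in capitals. The pattern occurs in 222 of 21877 protein-coding genes (1.01%) and in 2 of the 9 genes, Tfrc and Fth1. A count of RNA does not measure translation.
Fth1 5′ UTR, chr19:9982733-9982759, plus strand: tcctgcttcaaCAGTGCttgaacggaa
Ftl1 5′ UTR, chr7:45459780-45459806, minus strand: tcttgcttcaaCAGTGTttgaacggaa
Tfrc 3′ UTR, chr16:32631220-32631246, plus strand: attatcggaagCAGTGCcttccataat
Tfrc 3′ UTR, chr16:32631599-32631625, plus strand: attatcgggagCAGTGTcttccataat
Tfrc 3′ UTR, chr16:32631664-32631690, plus strand: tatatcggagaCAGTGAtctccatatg
Tfrc 3′ UTR, chr16:32631711-32631737, plus strand: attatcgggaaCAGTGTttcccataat

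Tfrc, the transferrin receptor, was not called. Tfrc (ENSMUSG00000022797, chr16:32608920-32632794, plus strand) was at 626 and 459 in Prox1 libraries, against 370 and 483 in GFP libraries. The groups overlapped. The log2 difference was 0.34 ± 0.24 (SE; 95% interval -0.17 to 0.86; limma adjusted p 0.353). Slc11a2, which moves iron out of the endosome, was at 277 and 270 in Prox1 libraries, against 269 and 275 in GFP libraries (limma adjusted p 0.985). Slc40a1, the only known iron exporter, was at 0 in all 4 libraries.

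Fth1, the ferritin heavy chain, was lower in both Prox1 libraries but was not called. Fth1 (ENSMUSG00000024661, chr19:9982703-9985092, plus strand) was at 1404 and 1666 in Prox1 libraries, against 2356 and 2300 in GFP libraries. The groups did not overlap. The ratio of means was 0.659 and the log2 difference -0.61 ± 0.21 (SE; 95% interval -1.07 to -0.15; limma adjusted p 0.0703). The list for iron uptake, export and storage had 11 tested genes and a median of 0.01. Its 1 called gene, or 9.09% against 16.0% of all tested genes, was the ferritin light chain gene Ftl1. It was at 1474 and 1627 in Prox1 libraries, against 2862 and 3355 in GFP libraries. It fell with a ratio of means of 0.499 (log2 -1.0 ± 0.22, limma adjusted p 0.00844). With 1 library left out the log2 difference of Ftl1 was -1.11 to -0.89, and the authors' deposited table has a DESeq adjusted p of 0.188. Ftl1 lost the call without the variance trend (limma adjusted p 0.0632).

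Processed copies of the light chain gene were lower too, and reads of such copies may not be separable from those of Ftl1. Ftl2-ps was at 1683 and 2250 in Prox1 libraries, against 4968 and 5216 in GFP libraries (log2 -1.39, limma adjusted p 0.00225). Ftl1-ps1 was at 128 and 144 in Prox1 libraries, against 318 and 355 in GFP libraries (log2 -1.30, limma adjusted p 0.00327), and Ftl1-ps2 was at 37 and 58 in Prox1 libraries, against 99 and 138 in GFP libraries (log2 -1.32, limma adjusted p 0.0191). All 3 fell. With 1 library left out the log2 difference was -1.60 to -1.18 for Ftl2-ps, -1.39 to -1.22 for Ftl1-ps1 and -1.63 to -1.0 for Ftl1-ps2. DESeq adjusted p in the authors' deposited table was 0.0545 for Ftl2-ps, 0.0354 for Ftl1-ps1 and 0.116 for Ftl1-ps2. Of these, only Ftl1-ps2 lost the call without the variance trend (limma adjusted p 0.0645).

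A cluster of ferritin heavy chain-like genes on the X chromosome stood apart from Fth1. These Fthl17 genes are known in mice from germ cells and early embryos, and the transcripts of Fthl17b to Fthl17f are 96.2 to 99.6% identical to each other over 10 pairs and 64.3 to 65.6% identical to that of Fth1. Their reads may therefore not be separable from each other. In the cluster (chrX:8962134-9123979, 162 kb, 8 annotated genes) the counts summed to 202 and 241 in Prox1 libraries, against 5 and 1 in GFP libraries. The genes passed the minimum count only through the Prox1 libraries and so had to differ once tested, and no count of them is read as a result. Fthl17e was at 46 and 61 in Prox1 libraries against 0 and 0 in GFP libraries. Set against a floor of 3 counts in each GFP library it was at least 17.8-fold higher. Fthl17b was at 46 and 43 in Prox1 libraries, against 2 and 0 in GFP libraries, a ratio of 44.5 (95% interval from counting error 12 to 373). Fthl17c, Fthl17d and Fthl17f lay between 18 and 32 in Prox1 libraries, against 0 or 1 in GFP libraries. Fthl17a, which lies elsewhere on the X, and Fthl17-ps3 were at 0 in all 4 libraries. B630019K06Rik, the nearest tested neighbour of the cluster and named after its values were seen, went the other way, with 2 and 0 in Prox1 libraries, against 45 and 54 in GFP libraries.

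**Figure D5:**
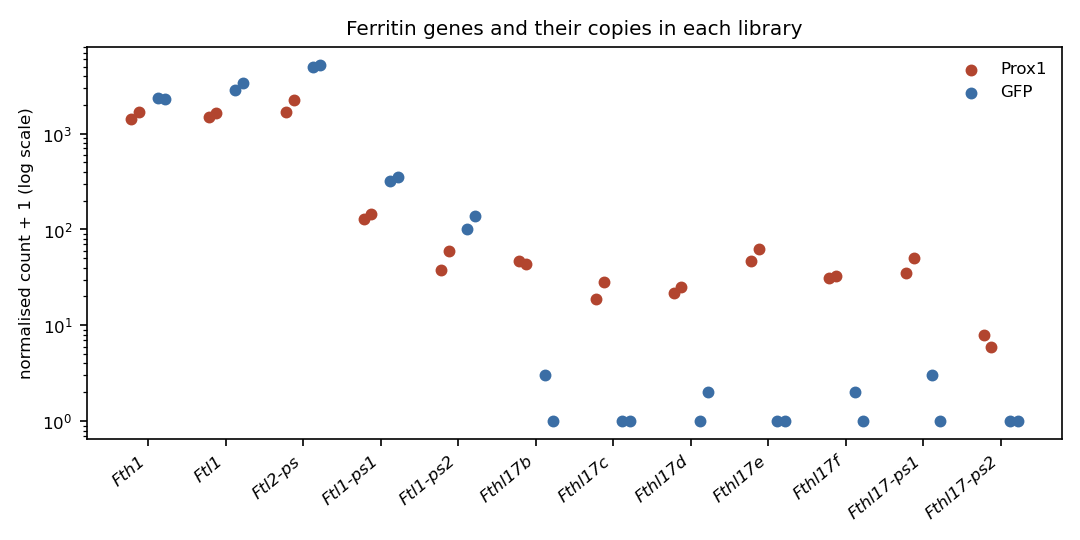
Normalised count plus 1 (vertical axis, log scale) of Fth1, Ftl1, their processed copies and the Fthl17 genes (horizontal axis) in the Prox1 libraries (left, red) and the GFP libraries (right, blue), with a point for each library. Fth1, Ftl1 and the Ftl copies are lower in both Prox1 libraries, and the Fthl17 genes are at 5 to 61 counts in Prox1 libraries, against 0 to 2 in GFP libraries; Fthl17a and Fthl17-ps3, at 0 throughout, are not drawn.

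Of the 11 regulators of iron and heme genes, 8 were tested, 1 was called higher and 1 lower, with a median of 0.08. Aco1, or iron regulatory protein 1, was at 80 and 67 in Prox1 libraries, against 153 and 143 in GFP libraries. It fell with a ratio of means of 0.497 (log2 -1.0 ± 0.28, limma adjusted p 0.0262). The related regulator Ireb2 was at 319 and 406 in Prox1 libraries, against 279 and 328 in GFP libraries (limma adjusted p 0.496). Zc3h12a, an RNase also known as regnase-1 that acts on Tfrc messenger RNA among others, was at 77 and 56 in Prox1 libraries, against 36 and 15 in GFP libraries. It rose (log2 1.45 ± 0.44, limma adjusted p 0.0422), but the log2 difference was 2.06 without GFP replicate 1 and 0.85 without GFP replicate 2. The log2 difference of Aco1 was -1.13 to -0.88 with 1 library left out. DESeq adjusted p in the authors' deposited table was 0.276 for Aco1 and 0.198 for Zc3h12a. Without the variance trend both lost the call (limma adjusted p 0.0624 and 0.0973). Fbxl5, the iron sensor that marks Ireb2 for decay, was at 608 and 426 in Prox1 libraries, against 672 and 876 in GFP libraries (limma adjusted p 0.11), and Bach1, the heme-sensing repressor of Hmox1, was at 76 and 75 in Prox1 libraries, against 65 and 58 in GFP libraries (limma adjusted p 0.553).

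Iron that is not put into heme goes largely into iron-sulfur clusters, and all 26 genes of their assembly were tested. Of these, 5 were called higher and 0 lower, or 19.2%, against 16.0% of all tested genes, with a median of 0.31. At an unadjusted p under 0.05 limma placed 9 of the 26, against 31.7% of all tested genes. In the authors' deposited table DESeq passed 1 of the 26, against 4.62% of all genes with a DESeq adjusted p. Bola1, which encodes a mitochondrial protein that acts with glutaredoxin 5, was at 214 and 193 in Prox1 libraries, against 65 and 46 in GFP libraries. It rose with a ratio of means of 3.67 (log2 1.87 ± 0.29, limma adjusted p 0.0014; DESeq adjusted p 0.0033 in the authors' deposited table). Nfs1, the cysteine desulfurase that supplies the sulfur, was at 136 and 204 in Prox1 libraries, against 93 and 56 in GFP libraries (log2 1.20 ± 0.32, limma adjusted p 0.0247). Lyrm4, the small partner that stabilises Nfs1, was at 102 and 137 in Prox1 libraries, against 51 and 45 in GFP libraries (log2 1.29 ± 0.31, limma adjusted p 0.0145). Both genes rose, and in both every Prox1 library was above every GFP library. The authors' deposited table has a DESeq adjusted p of 0.107 for Nfs1 and 0.136 for Lyrm4. Without the variance trend Nfs1 lost the call (limma adjusted p 0.0938), while Bola1 (0.0203) and Lyrm4 (0.0432) kept it. The other 2 called genes, named after their values were seen, were Bola3 at 205 and 271 in Prox1 libraries, against 158 and 95 in GFP libraries (limma adjusted p 0.0451), and Nubpl, needed to build respiratory complex I, at 112 and 65 in Prox1 libraries, against 41 and 36 in GFP libraries (limma adjusted p 0.0486). The scaffold Iscu was at 246 and 161 in Prox1 libraries, against 131 and 130 in GFP libraries (limma adjusted p 0.146). With 1 library left out the log2 difference was 1.63 to 2.12 for Bola1, 1.07 to 1.5 for Lyrm4 and 0.83 to 1.56 for Nfs1.

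Over the 84 other genes in the lists for heme synthesis, heme transport and breakdown, iron uptake and storage, regulators and iron-sulfur clusters, 82 were in the table and 62 were tested. limma called 7 higher and 4 lower, or 17.7% of those tested, against 16.0% of all tested genes. Their median log2 difference was 0.17, with 40 positive and 22 negative, against -0.0017 for all tested genes. The groups did not overlap in 35 of the 62, against 58.8% of all tested genes. In the authors' deposited table Hebp1 and Bola1 alone had a DESeq adjusted p under 0.05, of 60 with a value. The share over all genes with such a value was 4.62%.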

How the data were processed

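Per the labels' protocols, total RNA with an integrity number above 7 was made into 3′ messenger RNA libraries, which were read on an Ion Proton. Per the submitters' processing notes, the authors' tools included DESeq and the genome build was mm10. How reads were aligned and counted, whether by strand, and on which annotation release is not stated in the sources used here. Values in the deposited table are log2 normalised counts for each library, per the file headers. Undoing the log and taking off 1 gave whole numbers within a relative deviation of 3.47e-09. The values were therefore read as log2(normalised count + 1). The deposited table also gives results of the authors' DESeq test (fold change on the log2 scale, p-value and its adjusted form). The other deposited files repeat these values and were not used here. Because counts were rounded after normalisation, no count model was run.

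limma 3.58.1 (R 4.3.3; linear model with a mean-variance trend) compared Prox1 with GFP libraries on log2(normalised count + 1) for 13290 genes with a mean of at least 10, two-sided, with Benjamini-Hochberg adjustment over all of them and a threshold of 0.05. The script was tested on simulated data. This scale understates the change of low genes, so ratios of mean normalised counts are given too. Ratio intervals and the floor of 3 counts per library take normalised counts for reads and reflect nothing beyond counting error. Groups and replicate numbers came from the sample titles. Replicate libraries were not the same library deposited again, since the chi-square between them, divided by its degrees of freedom, was 21.1 in Prox1 and 22 in GFP.

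The 9 genes and all gene lists were chosen with earlier results of these data known. In each list the text names up to 3 called genes that rose most and up to 3 that fell most, or the tested gene with the lowest p where none was called, plus neighbours within 250 kb of Abcb10, genes overlapping a member, ferritin copies by symbol and the 5 genes most like Abcb10. Further list genes were named for their role or their values after these had been seen. The list genes Flvcr1 and Flvcr2 were not analysed here, and some other list and marker genes are not reported here by name. Alternatives were 2 other scalings, a minimum mean of 50 or none, a pseudocount of 5 or 0.5, a replicate block, no variance trend and leaving out each library. Gene positions are those of the authors' table. Upstream sequences are from RefSeq (GRCm38.p6) and iron-responsive elements from GENCODE transcripts (GRCm38, the assembly of mm10).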

Additional observations from a re-analysis of the deposited data

How the results depend on the processing

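limma called 2124 genes, including 1 of the 8 partners of Abcb10 and 11 of the other heme and iron genes. Without the minimum count it called 0 genes, 0 partners and 0 of the others (lowest adjusted p 0.126, with 5032 genes at an unadjusted p under 0.05). Without the variance trend it called 1057 genes, 0 partners and 3 of the others. With 1 library left out it called 0 genes (range 0 to 0), 0 partners and 0 of the others, with a lowest adjusted p of 0.142 to 0.246. In the fits with no minimum or 1 library fewer no gene passed, so they do not bear on single calls. The causes were not tested. Same-numbered libraries did not deviate together across genes (r = -0.051). With 2 libraries per group this cannot tell whether they shared a culture or preparation, and the main fit took no pairing. With the replicate block limma called 2528 genes and 2 partners, the second being Fech (adjusted p 0.0454). Hmox1, with a log2 difference of -0.02, changed sign with library totals set equal (0.05), without Prox1 replicate 1 (0.24) and without GFP replicate 2 (0.11), its range with 1 library left out being -0.27 to 0.24. Abcb10 was at 3.11 to 3.22 in settings other than leaving out a library. Over 24 named genes, without Abcb10 and the Fthl17 genes, 162 of 189 values under these other settings kept direction and side of the threshold. Of the rest, 25 lost the call (the fit with no minimum included), 1 gained it and 1 changed sign. The 162 include values of genes such as Alas1 and Tfrc, which were not called in the main fit and had no call to lose. The 25 are thus a larger share of the values of called genes. With a library left out, 2 of 96 values changed sign, both of Hmox1. With 2 libraries per group, genes of few counts are the least precise.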
